A study of Mus musculus with 60 samples.

Results

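The 8 genes described here are the globins Hba-a1, Hba-a2, Hba-x, Hbb-b1, Hbb-b2, Hbb-y and Hbb-bh1, and Alas2, the red-cell enzyme that starts heme synthesis. They are 8 of 22869 genes in a table of raw read counts from mouse microglia. They were chosen by name, and each gene is read from the transcript row that the table marks as best, or from its row with most counts where none is marked. Levels are CPM, which are counts divided by the total of the library and scaled to a common size, over all genes read in this way.

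The study asked how gene expression in microglia, the resident macrophages of the brain, develops in male and female C57BL/6N mice and responds to lipopolysaccharide (LPS), a component of bacterial outer membranes that sets off inflammation. It holds 60 libraries of polyA RNA. Untreated microglia came from embryonic day 18 (E18, 4 male and 3 female libraries), postnatal day 4 (P4, 4 and 4) and postnatal day 14 (P14, 10 and 10). At postnatal day 60 (P60), mice had received LPS (7 male and 6 female libraries) or saline (5 and 7). All mice are of the same strain, and the labels name no transgene or knockout. Sex is taken from the library titles, which disagree with the separate sex label in 10 libraries. The labels do not say whether replicates are separate animals, so p-values measure only the spread between libraries.

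Libraries held 802016 to 3497454 counts, with a median of 970080 in the LPS group and 2092799 in the saline group. All 12 listed microglia markers had counts at every stage, and all 12 were higher at P4 than at E18, with sums of 8738 to 20289 CPM at P4, against 3399 to 6620 CPM at E18. Each calendar date in the labels belongs to a single stage and treatment, so stage or treatment and date cannot be told apart. Ttr, a choroid plexus transcript, made up over 10% of counts in 3 libraries, namely 24.8% in male E18 library 4, 10.4% in male E18 library 3 and 12% in female saline library 6.

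Hemoglobin is built from a pair of alpha-like and a pair of beta-like globin chains, each holding a heme. In the mouse, the first red cells of the yolk sac express the embryonic genes Hba-x (zeta), Hbb-y and Hbb-bh1, and the later red cells from fetal liver and bone marrow express the adult genes Hba-a1, Hba-a2 and the adult beta genes. Globin transcripts are among the most abundant in immature red cells.

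Not every row was a separate measurement. Hba-a1 and Hba-a2 held identical counts in all 60 libraries (7774 each), and so did Hbb-b1 and Hbb-b2 (5269 each), so that the 8 genes gave 6 distinct profiles. The separate levels of the members of each pair cannot be told apart here. Each pair is described once below, as Hba-a1/a2 and Hbb-b1/b2. The row named Hbb-b1 carries the transcript that RefSeq now assigns to Hbb-bt. A further row named Beta-s carries the transcript of Hbb-bs, the other adult beta globin of this strain. Beta-s is not among the 8 genes, but its values are given where the adult beta level turns on it.

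The adult and embryonic genes can be set side by side by the sequence just before their start sites. The 130 bases upstream are shown for 5 members and Beta-s from RefSeq (GRCm38.p6), because the levels and shares below set these adult and embryonic genes against each other. Of the 8 genes, 5 matched this table by symbol and Hbb-b1 matched through its transcript. Capitals mark matches, on either strand, to the CCAAT box, the CACCC box, the GATAA motif that GATA factors recognise, and the TATAA box.
Hba-a1: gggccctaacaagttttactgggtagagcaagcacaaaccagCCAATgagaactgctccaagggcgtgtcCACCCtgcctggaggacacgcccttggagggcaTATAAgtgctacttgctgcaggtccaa
Hba-x: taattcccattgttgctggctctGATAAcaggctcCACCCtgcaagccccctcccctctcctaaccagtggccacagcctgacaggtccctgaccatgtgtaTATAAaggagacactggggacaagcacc
Hbb-b1 (RefSeq Hbb-bt): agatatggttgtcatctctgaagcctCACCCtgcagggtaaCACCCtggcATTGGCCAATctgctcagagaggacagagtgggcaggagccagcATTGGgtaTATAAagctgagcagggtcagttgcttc
Beta-s (RefSeq Hbb-bs): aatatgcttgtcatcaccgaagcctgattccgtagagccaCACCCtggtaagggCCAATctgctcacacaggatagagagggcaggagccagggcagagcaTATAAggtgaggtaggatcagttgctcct
Hbb-y: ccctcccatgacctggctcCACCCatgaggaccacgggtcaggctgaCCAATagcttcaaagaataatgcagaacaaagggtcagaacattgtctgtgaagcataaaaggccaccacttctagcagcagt
Alas2: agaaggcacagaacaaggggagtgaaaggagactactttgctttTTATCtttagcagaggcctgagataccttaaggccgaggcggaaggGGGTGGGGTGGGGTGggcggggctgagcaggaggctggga
These lie at chr11:32283542-32283671 (plus strand), chr11:32276470-32276599 (plus), chr7:103813924-103814053 (minus), chr7:103827929-103828058 (minus), chr7:103853208-103853337 (minus) and chrX:150547287-150547416 (plus). In the alpha cluster, Hba-a1 held a CCAAT match, which Hba-x lacked, and Hba-x held a GATAA match, which Hba-a1 lacked. In the beta cluster, the adult rows and Hbb-y all held CCAAT and CACCC, and TATAA was found before both adult rows but not before Hbb-y. Alas2 held a GATAA match, on the other strand, and 3 adjoining CACCC matches, with no CCAAT or TATAA. Some matches adjoin each other without a gap, and no match shares bases with another. Across 32851 promoters, the same window held CCAAT in 22.4%, CACCC in 33.7%, GATAA in 11.4% and TATAA in 12.7%. The windows of Hba-a1 and Hba-a2 shared an unbroken run of 127 of 130 bases, whereas those of Beta-s and Hbb-b1 shared at most 14. A match describes the letters and does not show binding.

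The adult globin rows and Alas2 were several-fold lower at P4 than at E18. Hba-a1/a2 averaged 60.9 ± 34.6 CPM at P4 and 391 ± 204 CPM at E18 (SD, n = 8 and 7). The lowest, median and highest P4 libraries held 13.3, 66.6 and 119 CPM of Hba-a1/a2, against 89.3, 399.5 and 640 CPM at E18. Of the 8 P4 libraries, 7 lay below every E18 library, and male P4 library 2 lay above the lowest E18 library, female library 1. The log2 fold was -2.47 (SE 0.70, edgeR adjusted p = 0.00351).

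Hbb-b1/b2, the adult beta row, gave the same picture. It held 13.3, 39.8 and 85 CPM in the lowest, median and highest P4 libraries, against 67.8, 285 and 441 CPM at E18 (log2 fold -2.64, SE 0.66, edgeR adjusted p = 0.00104). Again 7 of 8 P4 libraries lay below every E18 library. The Beta-s row was the most abundant of the beta rows. It held 54.6, 165 and 285 CPM at P4, against 280, 1316 and 1759 CPM at E18 (log2 fold -2.62, SE 0.78, edgeR adjusted p = 0.00524). Alas2 changed less, with 4.88, 17.7 and 39.5 CPM at P4 against 31.3, 60.8 and 90.2 CPM at E18 (log2 fold -1.53, SE 0.50, edgeR adjusted p = 0.00992). P4 libraries of Alas2 overlapped E18 only through male library 2.

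In all, 6 of the 6 members tested were lower at P4 than at E18 and 0 were higher, against 22.7% of 13853 tested genes called lower and 25.5% called higher. These 6 rows stand for 4 profiles. Hbb-y passed the count filter through E18 libraries, where it is high, so its call adds no separate support. Hba-x and Hbb-bh1 did not pass the count filter. In bulk RNA, fewer cells of a type and less RNA per cell cannot be told apart.

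**Figure D1:**
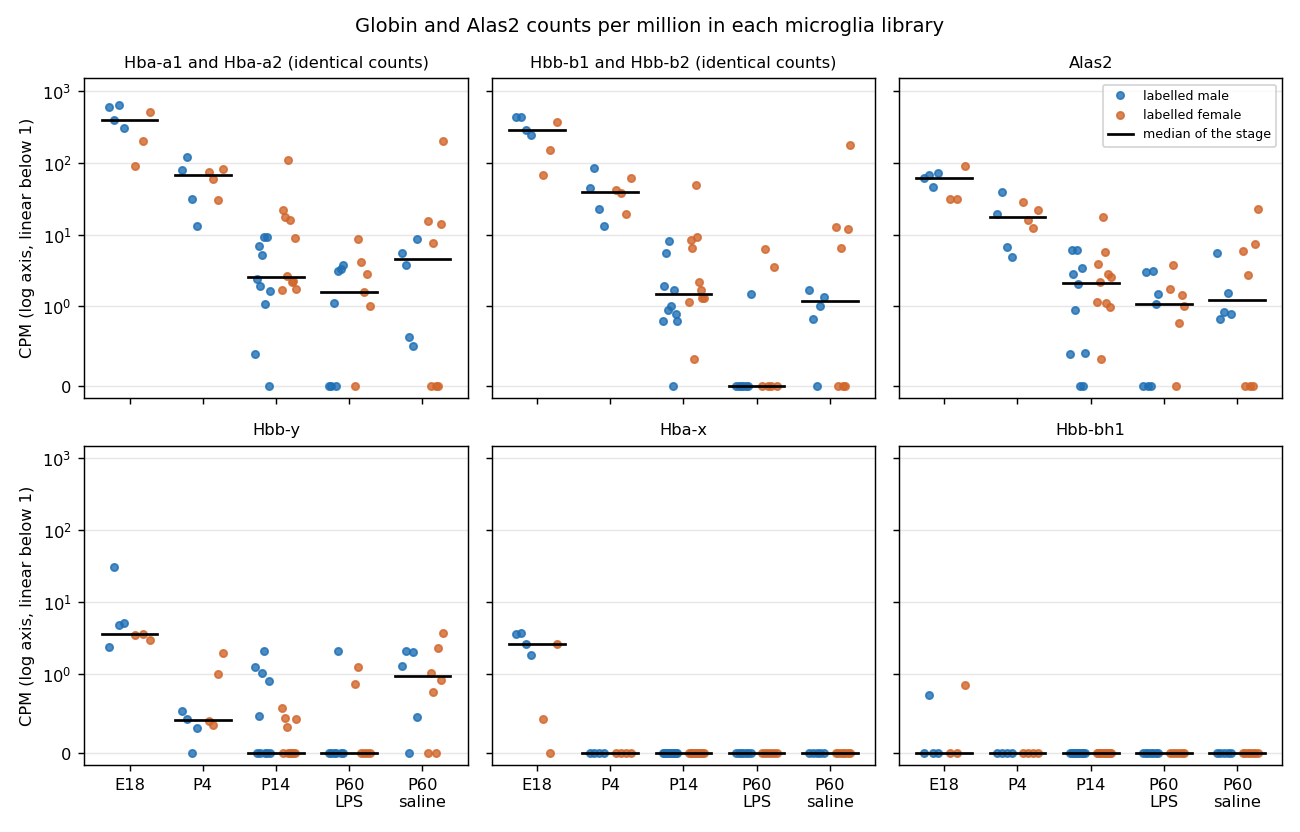
CPM of each member in the 60 libraries by stage (log axis above 1, linear below), with male and female libraries as points and the stage median as a bar. The adult rows and Alas2 step down from E18 to P4 and P14, Hbb-y is low after E18, and Hba-x has counts at E18 alone.

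The embryonic globins were scarce even at E18. Hbb-y, an embryonic beta-like chain, held 95 counts over the 7 E18 libraries together. By library it stood at 2.38, 2.99, 3.43, 3.59, 4.84, 5.07 and 30.7 CPM. The highest value came from male E18 library 4, which alone held 42 of the 95 counts and was also the library with 24.8% Ttr. The part of Ttr in that value was not tested.

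At P4, Hbb-y stood between 0 and 1.95 CPM, with a median of 0.42 CPM and 12 counts in all, and no P4 library reached the lowest E18 library. The log2 fold was -3.32 (SE 0.65, edgeR adjusted p = 5.04e-05). Hbb-y was tested in 44 of 47 fits with 1 library left out, and without male E18 library 4 it fell below the count filter. With that library left out and no filter, the log2 fold was -2.52 (SE 0.59, edgeR adjusted p = 0.000671).

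Hba-x, the embryonic alpha-like chain, had counts at E18 alone. It held 1, 6 and 0 counts in female E18 libraries 1, 2 and 3, and 6, 7, 5 and 5 counts in male libraries 1 to 4. All 53 later libraries were at 0. Taking 3 counts as the most that a count of 0 allows over a stage, its pooled level was at least 12.6-fold lower at P4 than at E18. The same bound was 24.8-fold at P14 and 14.9-fold at P60 with saline. These bounds cover counting error only. Without the filter, edgeR called Hba-x lower at P4 than at E18 (adjusted p = 0.000562), and also without the libraries over 10% Ttr (0.00146).

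Hbb-bh1, the other embryonic beta-like gene, had 3 counts in all, 2 in female E18 library 2 and 1 in male E18 library 4. A change in Hbb-bh1 was not detectable at this depth.

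Per kilobase of transcript, a scale on which genes can be compared, the median E18 level was 572 CPM per kilobase for Hba-a1 and 405 for Hbb-b1, then 32.1 for Alas2, 5.67 for Hbb-y, 3.20 for Hba-x and 0 for Hbb-bh1. The libraries of Hba-a1/a2 and Hbb-b1/b2 overlapped, as did those of Hbb-y and Hba-x. In medians, the large steps in this order lay between the adult rows, Alas2 and the embryonic genes. Single libraries were not separated in this way. In male E18 library 4, Hbb-y held 30.7 CPM on 633 bases, which per kilobase lay above every E18 library of Alas2. Alas2 held 31.3 to 90.2 CPM on 1892 bases.

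The switch within each locus was described by the embryonic share of its counts. Depth cancels out of this share, but the share also moves with the adult level wherever the embryonic genes do not follow it. With saline, the beta share was 55.6% in male library 1 (4 adult counts) and 5.56% in female library 3 (34). It was 0% in female library 1 (80) and 1.03% in female library 6 (288). Of the beta-like counts of members, Hbb-y and Hbb-bh1 made up 98 of 8244 at E18, or 1.19% (exact binomial 95% interval 0.966 to 1.45%). At P4 the share was 0.774% (0.401 to 1.35%), from 12 of 1550 counts. The E18 and P4 intervals overlap, and without male E18 library 4 the E18 share was 0.787% (0.593 to 1.02%), close to that at P4. In single libraries the share ranged from 0.275% to 3.44% at E18 and from 0 to 2.50% at P4. A fall of Hbb-y relative to adult beta globin between E18 and P4 was thus not detectable at this depth once that library was left out, although both levels fell.

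At the later stages the pooled share was larger, on few adult counts. It was 3.06% at P14 (12 of 392 counts, 1.59 to 5.29%) and 4.66% at P60 with saline (22 of 472 counts, 2.94 to 6.97%). Without female P14 library 5 the P14 share was 5.94%, and without female saline library 6 the saline share was 10.5%. These libraries hold 95 of 190 Hbb-b1/b2 counts at P14 and 144 of 225 with saline. Counting the identical pair once and adding Beta-s to the adult counts gave 0.478% at E18, 0.315% at P4, 0.892% at P14 and 1.73% at P60 with saline. The order of the pooled shares over the 4 stages was the same in both countings. The median over libraries gave another order, with 1.04% at E18, 0.540% at P4, 0% at P14 and 20.8% at P60 with saline, and 10 of 19 P14 libraries with beta-like counts had adult counts without embryonic ones.

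For the alpha locus, Hba-x made up 30 of 11808 counts at E18, or 0.254% (0.171 to 0.362%). It made up 0 of 2282 counts at P4, with an upper bound of 0.162%, which lies below the lower bound at E18. At P14 the share was 0 of 852 counts, with an upper bound of 0.432%, and at P60 with saline 0 of 576 counts, with an upper bound of 0.638%. Those bounds do not lie below the E18 share. Counts are of reads, so the intervals cover counting error only, and the doubled rows make them narrower than the reads allow. With the pair counted once, the E18 interval was 0.342 to 0.723% and the P4 upper bound 0.323%.

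**Figure D2:**
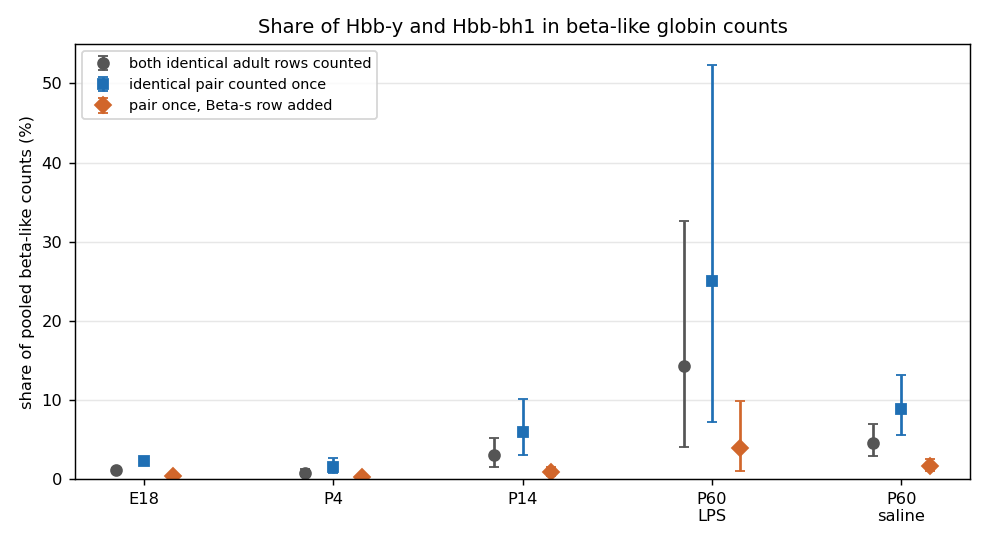
Share of Hbb-y and Hbb-bh1 in the beta-like counts pooled over each stage, under 3 ways of counting the adult rows, with exact binomial 95% intervals. The share is 1.19% at E18 and 0.774% at P4 with both identical rows counted, and the pooled value is larger at P14 and P60, where adult counts are few.

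Between P4 and P14 the adult rows and Alas2 fell again. Hba-a1/a2 held 0, 2.53 and 108 CPM in the lowest, median and highest P14 libraries, against 13.3, 66.6 and 119 CPM at P4 (log2 fold -2.63, SE 0.60, edgeR adjusted p = 0.000468). Hbb-b1/b2 held 0, 1.51 and 48.6 CPM at P14, against 13.3, 39.8 and 85 CPM at P4 (log2 fold -3.01, SE 0.60, edgeR adjusted p = 8.07e-05). Of the 20 P14 libraries, 16 lay below every P4 library in Hba-a1/a2. The highest P14 value of both rows came from female library 5, without which the log2 folds were -3.22 for Hba-a1/a2 and -3.66 for Hbb-b1/b2.

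Alas2 held 0, 2.12 and 17.4 CPM at P14, against 4.88, 17.7 and 39.5 CPM at P4 (log2 fold -2.39, SE 0.45, edgeR adjusted p = 3.73e-05). Beta-s fell by 2.37 on the log2 scale (SE 0.60, edgeR adjusted p = 0.00137). Hbb-y, by contrast, had a log2 fold of -0.43 (95% interval -1.94 to 1.08, edgeR adjusted p = 0.678), with 12 counts at P14 in 9 of 20 libraries and 12 counts at P4 in 7 of 8. Thus 5 of 6 tested members were lower at P14 than at P4 and 0 were higher, against 20.8% of tested genes lower and 20.6% higher. Whether the fall differed between Hbb-y and the adult rows was not tested.

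After P14 no adult row was called. Hba-a1/a2 held 0, 4.62 and 199.5 CPM in the lowest, median and highest P60 saline libraries, against 0, 2.53 and 108 CPM at P14. The log2 fold was 0.44 (95% interval -0.95 to 1.84, edgeR adjusted p = 0.627). Hbb-b1/b2 gave 0.34 (-1.61 to 2.29, edgeR adjusted p = 0.796) and Alas2 gave 0.14 (-0.95 to 1.23, edgeR adjusted p = 0.852). The sign of these 3 values rests on female saline library 6, the library with 199.5 CPM of Hba-a1/a2 and 12% Ttr, and without it they were -0.55, -0.67 and -0.16. For Alas2 the sign also turned without male saline library 5 (-0.29).

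Hbb-y was the single member called between P14 and P60. It held 22 counts in 9 of 12 saline libraries at P60, against 12 counts in 9 of 20 P14 libraries. The lowest, median and highest values were 0, 0.98 and 3.74 CPM at P60, against 0, 0 and 2.05 CPM at P14 (log2 fold 1.53, SE 0.63, edgeR adjusted p = 0.0462). Of the 12 saline libraries, 3 lay above every P14 library, and the groups overlapped otherwise. The call was lost in 15 of 57 alternatives that tested it, including the one without male saline library 1 (log2 fold 1.35, adjusted p = 0.0992) and the one without female saline library 6 (1.33). In this comparison 1 of 6 tested members was higher and 0 were lower, against 18.5% of tested genes higher and 25.7% lower.

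From E18 to P60 with saline as a whole, 6 of 6 tested members were lower and 0 higher, against 34.8% of genes lower and 31.4% higher. They include Hbb-y, which passed the filter through its E18 libraries. The log2 folds were -4.65 for Hba-a1/a2 (SE 0.71, edgeR adjusted p = 2.36e-07), -5.31 for Hbb-b1/b2 (SE 0.73, adjusted p = 2.44e-08) and -3.78 for Alas2 (SE 0.52, adjusted p = 2.28e-08). Without female saline library 6 they were -5.79 for Hba-a1/a2 and -6.46 for Hbb-b1/b2. Hbb-y gave -2.23 (SE 0.56, adjusted p = 0.000595), a smaller value than the adult rows, and -1.43 (adjusted p = 0.0175) with male E18 library 4 left out and no filter. The difference between these folds was not tested.

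**Figure D3:**
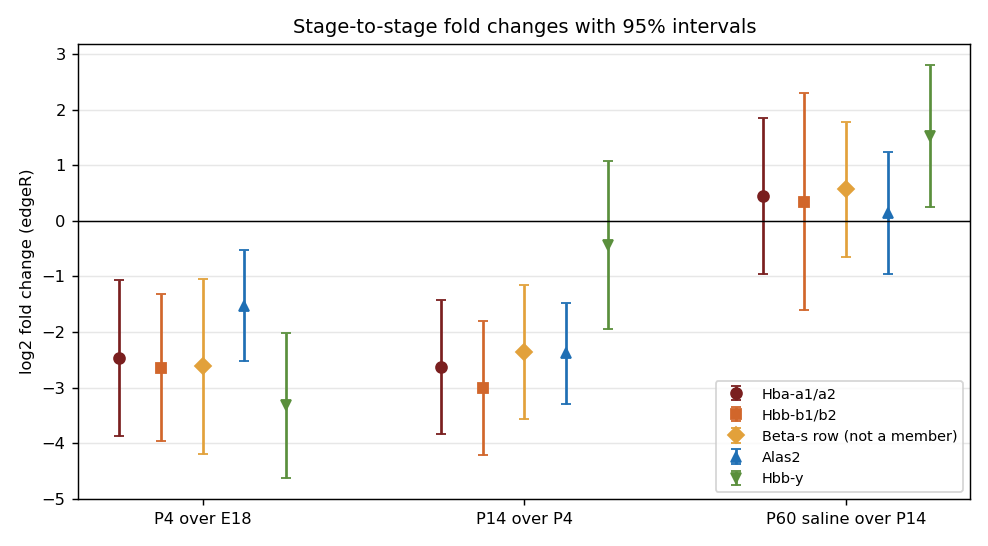
Log2 fold changes between successive stages from edgeR, with 95% intervals, for the 4 tested profiles and the Beta-s row. The adult rows and Alas2 lie below 0 in the first and the second step and their intervals include 0 in the third, whereas Hbb-y lies below 0 in the first step, includes 0 in the second and lies above 0 in the third.

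Globin counts were few in both P60 groups, and no member could be called between LPS and saline. The filter left 0 of the 8 members in this comparison, so the count of members called was 0 higher and 0 lower, against 10.5% of 10538 tested genes higher and 3.95% lower. Hba-a1/a2 held 0, 1.59 and 8.70 CPM in the lowest, median and highest LPS libraries, against 0, 4.62 and 199.5 CPM with saline. Hbb-b1/b2 had 12 counts in 3 of 13 LPS libraries, against 225 counts in 8 of 12 saline libraries, of which 144 came from female saline library 6. Hbb-y had 4 counts in 3 of 13 LPS libraries, against 22 counts in 9 of 12 saline libraries. Hba-x and Hbb-bh1 had none in either group.

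Without the filter, the log2 fold for LPS over saline was -2.24 in Hba-a1/a2 (95% interval -4.22 to -0.26, edgeR p = 0.0282, adjusted p = 0.168). It was -2.77 in Hbb-b1/b2 (-5.58 to 0.03, edgeR p = 0.0527, adjusted p = 0.246). It was -1.54 in Hbb-y (-3.07 to -0.01, edgeR p = 0.0492, adjusted p = 0.237) and -1.09 in Alas2 (-2.37 to 0.19, edgeR p = 0.0924, adjusted p = 0.335). Leaving out also the libraries with over 10% Ttr, which removes female saline library 6, brought Hba-a1/a2 to -1.09 and Hbb-b1/b2 to -1.59. Beta-s passed the filter, with medians of 1.59 CPM under LPS and 14.8 CPM with saline (log2 fold -2.61, SE 0.90, edgeR adjusted p = 0.0504). Without the library over 10% Ttr its value was -1.27 (edgeR adjusted p = 0.25). It was called when scaled by library totals (edgeR adjusted p = 0.0377), with transcript rows summed (0.0496) and with the separate sex label (0.0240). With that label its value was -1.29 in females and -5.31 in males, against -3.79 and -1.43 by title. By sex, with a filter of 1 CPM, Hbb-b1/b2 was lower under LPS in females (log2 fold -4.21, SE 1.19, edgeR adjusted p = 0.0422). That call rests on female saline library 6, which holds 144 of the 214 female saline counts of this row and which the separate sex label gives as male. Without that library and without a filter the value in females was -1.79 (edgeR adjusted p = 0.391). Other settings that kept the main filter did not test the row. LPS libraries were shallower than saline libraries, and the part of depth was not tested.

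Between the sexes, 0 of 6 tested members were called by edgeR at E18, P4, P14 or P60 with saline. Of all 13853 tested genes, edgeR called 7 higher and 3 lower in males at E18. At each of the other stages it called 4 higher and 2 lower, so hardly any gene was called. At an unadjusted p under 0.05 the counts were 1, 0, 2 and 4 of 6 members, in the same order of stages, against 2602, 46, 655 and 1340 of 13853 genes. The 2 at P14 are the identical rows of Hba-a1/a2. The 4 at P60 with saline are the identical pairs Hba-a1/a2 and Hbb-b1/b2, so these counts overstate the separate measurements. At P60 with saline, Hbb-b1/b2 held 0 to 1.68 CPM in 5 male libraries, against 0 to 179.5 CPM in 7 female libraries (log2 fold -4.89, SE 1.20, edgeR adjusted p = 0.143). DESeq2 called this row (log2 fold -5.18, adjusted p = 0.0032). Without female saline library 6 the edgeR value was -2.77, and that of Hba-a1/a2 was -1.07, against -3.13 with it. With the separate sex label in place of the title, the value was 2.44 (edgeR adjusted p = 0.527), so its direction rests on which label is right. At E18, limma-voom with sample weights called 4 members, with 703 genes higher and 544 lower of 13853, where edgeR called 0 members, with 7 genes higher and 3 lower.

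The adult alpha and beta rows and Alas2 ranked the 60 libraries much alike, and less so within E18 and within P60 with LPS. Over all 60 libraries, Hba-a1/a2 and Hbb-b1/b2 had a Pearson correlation of 0.97 on log2 CPM and a Spearman correlation of 0.91. Within P4, where n = 8, these were 0.97 and 1.00. Within P14, where n = 20, they were 0.85 and 0.76, and within E18, where n = 7, they were 0.93 and 0.68. Within P60 with LPS, where n = 13, they were 0.69 and 0.55. Alas2 followed Hbb-b1/b2 with a Spearman correlation of 0.90 over all libraries 0.87 within P14, 0.57 within E18 and 0.47 within P60 with LPS. With Hba-a1/a2, Alas2 had 0.36 within E18 and 0.27 within P60 with LPS. These points share depth within a library, and part of the likeness over 60 libraries is the common difference between stages.

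The correlation of Hbb-y with the adult rows differed between stages. With Hbb-b1/b2 its Spearman correlation was 0.07 at E18, 0.50 at P4, -0.22 at P14, 0.20 at P60 with LPS and 0.11 at P60 with saline. Female P14 library 5, with 95 counts of Hbb-b1/b2 and 530 of Beta-s, had 0 of Hbb-y, and female saline library 6, with 144 and 623, had 3. Male saline library 1 had 5 counts of Hbb-y, the most of any P60 library. With counts this low, these correlations are no finding. The same holds for Hba-x, with 0 to 7 counts per E18 library, whose Spearman correlation at E18 was 0.93 with Hbb-b1/b2 and 0.46 with Alas2.

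**Figure D4:**
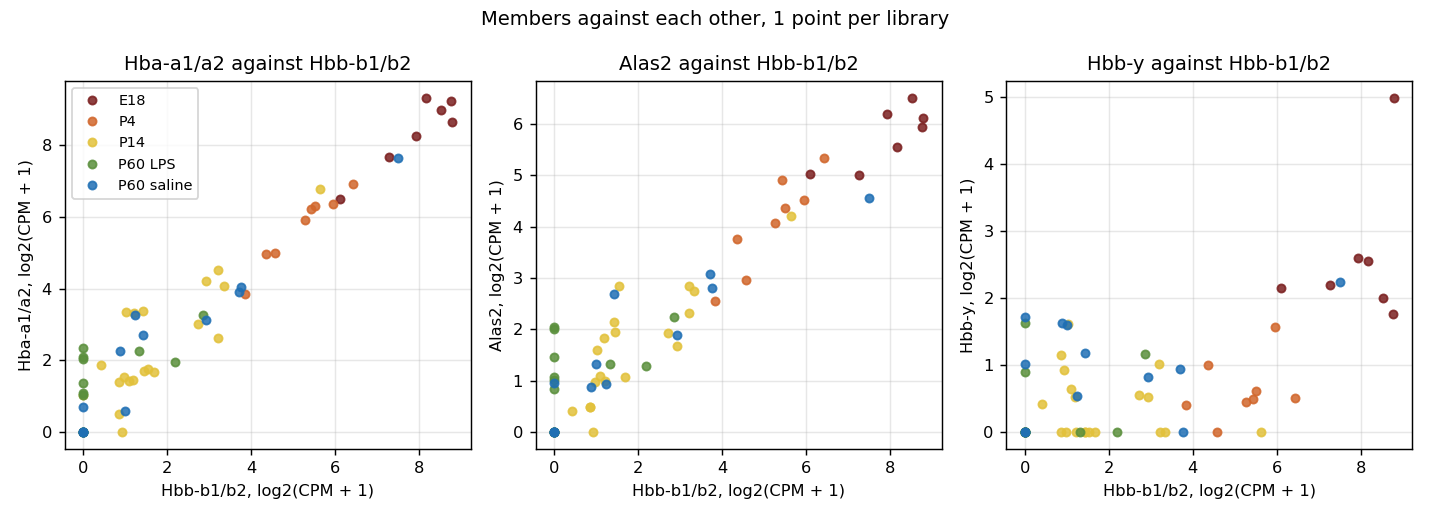
Log2(CPM + 1) of Hba-a1/a2, Alas2 and Hbb-y against Hbb-b1/b2, with 1 point per library and stages in colour. The first and the second lie along a line over all stages, while libraries of P14 and P60 with the same Hbb-b1/b2 level differ in Hbb-y, and male E18 library 4 stands above the rest.

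Ratios between the adult rows within a library overlapped between P4 and E18, while their levels were several-fold apart. Per length, Hba-a1 over Hbb-b1 ranged from 1.01 to 1.77 at P4, against 0.91 to 2.26 at E18, with medians of 1.49 and 1.34. Beta-s over Hbb-b1, the other adult beta row, had medians of 4.55 at P4 and 4.53 at E18. Alas2 over Hba-a1 was higher in its median at P4, with 0.0800 to 0.151 and a median of 0.111, against 0.0267 to 0.131 and a median of 0.0635 at E18. The ranges of this ratio also overlap. Only libraries with at least 20 counts of the second gene of a ratio were used, and few reached this after P4. For Alas2 over Hba-a1 the range was 0.041 to 0.066 in 4 P14 libraries and 0.042 to 0.143 in 3 saline libraries.

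By the rule of likeness, the gene outside the 8 whose CPM ranked most like the summed adult rows over 60 libraries was Beta-s, with a Spearman correlation of 0.95, and 0.96 within the 20 P14 libraries. The next, Ctxn1, stood at 0.83 over all libraries and 0.56 within P14. Dut, Acot1, Psmd2, 2610524H06Rik, Tspan6 and Mea1 followed at 0.81 to 0.83. For the summed embryonic globins the highest value was 0.68, for Ostc, and 0.12 within P14. Hbxip, Ube2e1, Fam32a, Atp6v1h, Ssbp2, Cct6a and Pgam5 followed, between 0.64 and 0.66.

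Some genes that define red cells had few counts, and those named next were picked after their values were seen. Gata1 and Klf1, transcription factors that define red-cell precursors, had 2 and 3 counts over all P4 libraries, against 3 and 4 counts at E18. Slc4a1, the band 3 anion exchanger of the red-cell membrane, had 33 counts at P4 and 36 at E18, then 18 at P14 and 3 at P60 with saline. Hbq1a, a further alpha-like globin gene, had 0 counts at P4 and 10 at E18. These are counts pooled over unequal depth and cannot be read as levels. All genes together held 15110349 counts at E18, 19001740 at P4, 37480767 at P14 and 22525488 at P60 with saline. Of 27 listed genes of the red-cell membrane and cytosol, 25 were in the table, 10 of them under 1 CPM over the pooled libraries at P4 and 10 at E18, and 14 were tested. At P4 against E18, 3 of these were higher, 5 lower and 6 not called, against 25.5% of all tested genes higher and 22.7% lower.

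The called genes of this list moved in both directions. Tfrc, the transferrin receptor, was higher at P4 (log2 fold 1.68, SE 0.25), as were Ermap (2.13, SE 0.43) and Epor, the erythropoietin receptor (1.38, SE 0.41). Add2, an adducin of the membrane skeleton that neurons also express, was lower (-4.08, SE 0.49), as was the peroxidase gene Prdx2 (-1.85, SE 0.28). The edgeR adjusted p was below 0.05 for each. Of 10 listed red-cell transcription factors 7 were tested, and 5 were higher at P4 than at E18 and 0 lower. The shares over all tested genes were 25.5% and 22.7%. Tal1 led the higher ones (log2 fold 2.61, SE 0.26), with Nfe2 (2.38, SE 0.42). These calls come from whole microglia libraries and do not show the state of red-cell precursors, for which Gata1 and Klf1 had too few counts.

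The remaining heme synthesis enzymes and carriers, 12 of 12 tested, were 3 higher, 3 lower and 6 not called at P4 against E18. That is near the share over all tested genes, of which 25.5% were higher and 22.7% lower. The median log2 fold of the list was -0.15, against 0.03 over all tested genes. Alas1, the form of Alas2 that all cells use, was higher at P4 (log2 fold 0.91, SE 0.14), as was the mitochondrial iron carrier gene Slc25a37 (1.42, SE 0.21). Alad, the next enzyme in the path, was lower (-1.01, SE 0.28), as was Urod (-0.83, SE 0.22). From P4 to P14, where Alas2 fell, 5 of these 12 were higher and 1 lower, against 20.6% and 20.8% of all tested genes.

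Listed regulators of the globin switch numbered 19, of which 18 were tested, and 7 were higher, 4 lower and 7 not called at P4 against E18. Over all tested genes, 25.5% were higher and 22.7% lower. Bcl11a, a repressor of embryonic globin genes that neurons also express, was lower (log2 fold -3.65, SE 0.33), with medians of 8.60 CPM at P4 and 125 CPM at E18. Igf2bp1, an RNA-binding protein of early development, was lower too (-2.21, SE 0.40), and fell again at P14 against P4 (-3.01, SE 0.44), as did Lin28b (-3.06, SE 0.43). Ikzf1, which encodes the blood-cell factor Ikaros, was higher at P4 (2.86, SE 0.28). These are levels in whole microglia libraries, not in red cells.

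Genes of hemoglobin and heme clearance, which macrophages use when they take up red cells, numbered 11 tested of 14 listed. At P4 against E18, 4 were higher, 0 lower and 7 not called, led by the iron exporter gene Slc40a1 (log2 fold 1.15, SE 0.16) and followed by Lrp1 (1.07, SE 0.32) and Hp (1.36, SE 0.43). At P14 against P4, where the adult globin rows fell, 5 of the 11 were higher, 1 lower and 5 not called. Hmox1, the heme-degrading enzyme, was higher (1.35, SE 0.19), as were Bach1 (1.43, SE 0.23) and Ftl1 (1.06, SE 0.20). Hp was the lower one (-2.49, SE 0.34). At P60 with saline against P14, where the adult rows were not called, 1 was higher, 4 lower and 6 not called. Hmox1 (-1.01, SE 0.16), Bach1 (-1.77, SE 0.20) and Ftl1 (-1.30, SE 0.17) were lower, and Slc48a1 was higher (0.38, SE 0.14). Over all tested genes, 25.5% were higher and 22.7% lower at P4 against E18. The shares were 20.6% and 20.8% at P14 against P4, and 18.5% and 25.7% at P60 with saline against P14.

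Markers of other cells moved between the same stages. Over all tested genes, 25.5% were higher and 22.7% lower at P4 against E18, and 20.6% and 20.8% at P14 against P4. Of 10 neuron markers 9 were in the table and 8 were tested, all of them lower at P4 than at E18, and their summed level was 34.2 to 183 CPM at P4, against 633 to 3038 CPM at E18. Of 8 neutrophil markers 7 were tested, all higher at P4, with sums of 276 to 8562 CPM at P4, against 175 to 1481 CPM at E18. Of 13 platelet markers 5 were tested, 1 higher and 2 lower, with sums of 47.9 to 133.5 CPM at P4, against 108.5 to 247 CPM at E18, and Gp6 at 0 in both. At P14 against P4, all 7 tested neutrophil markers were lower, with sums of 60.6 to 570 CPM at P14, and 5 of 8 neuron markers were lower, with sums of 8.50 to 212 CPM at P14. All 12 microglia markers were higher in that step, with sums of 15687 to 35743 CPM at P14. Neutrophil sums were 338 to 5442 CPM under LPS, against 17.5 to 401 CPM with saline. Choroid plexus markers, 7 of 7 tested, were 2 higher and 0 lower at P4, with sums of 14163 to 65764 CPM at P4, against 7045 to 253571 CPM at E18. The part of these cells in the globin values was not tested.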

How the data were processed

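Microglial RNA was extracted with Trizol and made into stranded polyA libraries, per the labels' protocols. The authors deposited 1 table of raw counts per transcript row. CASAVA 1.8.2, mm9 and edgeR are named in the submitters' processing notes, and the aligner and counter were not given in the sources used here. Of 28644 rows, 1 per gene was kept for 22869 genes. The members and gene lists were chosen with earlier results of these data known.

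Counts were tested with edgeR 4.0.16 in R 4.3.3 (filterByExpr, TMM, quasi-likelihood test, Benjamini-Hochberg adjustment over all tested genes, threshold 0.05). Untreated and saline libraries of all 4 stages entered one fit and the P60 libraries another. Alternatives used limma 3.58.1, DESeq2 1.42.0, other scalings, filters and transcript rows, the sex characteristic, a replicate block, and each library left out in turn. The fits were tested on simulated data. Shares have exact binomial intervals, which cover counting error only. All 8 members are named. From each list and comparison, up to 3 genes with the smallest p in each direction were eligible, and the 8 genes most like the adult and the embryonic sums are given. Gata1, Klf1, Slc4a1 and Hbq1a were named from the lists as defining red-cell genes after their values were seen.

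Same-numbered male and female libraries shared a labelled date in 4 of 4 pairs at P4, where their deviations correlated at 0.41 to 0.57, and in 10 of 10 pairs at P14, where the range was -0.28 to 0.52. Between stages no same-numbered pair shared a date.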

Additional observations from a re-analysis of the deposited data

Results flagged for a closer look

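In groups of 4 to 10 libraries, the highest and the lowest library were each set against the nearest other one, relative to the range of the group (Dixon's test at the 95% level). Of 56 combinations of group and measure, 18 had a library that stood apart. The usual rate of 1 in 20 for this test holds for normally distributed values. CPM here are often 0, so the 18 cannot be set against that rate. A library with a count where all others of its group had 0 is always flagged, as with Hbb-bh1 in male E18 library 4. The combinations are not independent, since adult rows and their sum rise in the same library.

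Female P14 library 5 stood apart in Hba-a1/a2 (108 CPM), Hbb-b1/b2 (48.6 CPM), Alas2 (17.4 CPM), the 8 members summed (330.4 CPM) and Beta-s (271 CPM). Female saline library 6 stood apart in the same measures, with 199.5 CPM of Hba-a1/a2, 179.5 CPM of Hbb-b1/b2, 22.4 CPM of Alas2, 784 CPM in the sum and 777 CPM of Beta-s, and Ttr made up 12% of its counts. Female LPS library 2 stood apart in the sum (34.8 CPM) and in Beta-s (50.9 CPM).

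Male E18 library 4 stood apart in Hbb-y (30.7 CPM), against 5.07 CPM in the nearest male library, and in Hbb-bh1 (0.730 CPM, which is 1 count). Of the remaining libraries, male LPS library 6 held 1.5 CPM of Hbb-b1/b2, male LPS library 4 held 2.08 CPM of Hbb-y, male LPS library 5 held 14.3 CPM of Beta-s and male saline library 5 held 5.47 CPM of Alas2. The Beta-s row, which is outside the 8 members, had a median of 1316 CPM at E18, above that of any member.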

How the results depend on the processing

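Under the alternatives run, 5 to 7 members stayed lower at P4 than at E18, with log2 folds of -2.78 to -2.0 for Hba-a1/a2 and -3.69 to -2.21 for Hbb-y. The call of Hbb-y at P60 saline against P14 was the least stable. There 0 members were called with the sex characteristic and with the replicate block (Hbb-y 1.39, edgeR adjusted p = 0.0958). The count was also 0 without the libraries over 10% Ttr, both with the filter, where Hbb-y was not tested, and without it. Leaving out 1 library gave 0 to 1 members. Hbb-y was tested in 44 of 47 such fits and lost its call in 12. The block changed no other count of members called. At E18, male over female, limma-voom called 4 members, and leaving out 1 library gave 0 to 1. At P60 saline, male over female, DESeq2 called 2, and in LPS females the 1 CPM filter called 2. Each time these were the identical rows of Hbb-b1/b2, and the share over all genes is not given here. Directions turned at P60 saline against P14. With voom, Hba-a1/a2 gave -0.13, Hbb-b1/b2 -0.17, Alas2 -0.042 and Beta-s -0.27. Without the Ttr libraries they gave -0.53, -0.67, -0.15 and -0.62, and also without a filter -0.55, -0.69, -0.18 and -0.64. The block gave -0.17 for Hbb-b1/b2. With 1 library left out, Hba-a1/a2 ranged from -0.55 to 1.07, Hbb-b1/b2 from -0.67 to 1.03, Alas2 from -0.29 to 0.56 and Beta-s from -0.64 to 1.20. At P60 saline, male over female, the sex characteristic gave 2.34 for Hba-a1/a2, 2.44 for Hbb-b1/b2 and 2.84 for Beta-s, and Hbb-y (main value 0.13) gave -0.015 with DESeq2 and -0.27 to 0.62 with 1 library left out. Counting identical pairs once gave a median alpha share of 0.506% at E18 and a sum of 944 CPM. Scaling by library totals moved the median of all genes by -0.29 at P14 against P4 (1376 higher and 5175 lower, against 2856 and 2888) and by -0.36 at P60 saline against E18 (2797 and 6649, against 4354 and 4827), with the same number of members called. For these turns and lost calls the cause was not tested. The P60 arms hold too few globin counts to test most members.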
